A study of Homo sapiens with 29 samples.

Results

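The secreted and surface Wnt antagonists considered here are 6 genes, DKK1, DKK4, WIF1, NOTUM, APCDD1 and SHISA3. They were chosen by symbol, with earlier results of these data known, and all 6 were found among the 13492 genes of the authors' table. The libraries hold polyA RNA, sequenced by RNA-seq, from mouse xenograft tumors of COLO320DM, 1 human colorectal adenocarcinoma cell line, with 29 libraries labelled 48 h. The groups were Helicon4_100mpk (n = 5), Helicon4_30mpk (n = 6), Helicon4neg_30mpk (n = 8) and vehicle (n = 10), and mpk is the unit of dose in the labels. According to the series title, Helicon4 is a helicon peptide directed at β-catenin and TCF. The labels give no structure for Helicon4 or Helicon4neg, and they do not give the mouse strain, age or route. Beyond replicate numbers, nothing says that libraries of a group came from separate animals, so p-values measure the spread between these libraries.

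Wnt ligands bind a Frizzled receptor and an LRP5 or LRP6 co-receptor, which stabilises β-catenin, and β-catenin then activates genes through TCF and LEF factors. Several genes activated in this way encode extracellular inhibitors of the same pathway, so that signalling cells produce their own brakes. DKK1 and DKK4 are secreted proteins that bind LRP5 and LRP6. WIF1 is a secreted protein that binds Wnt ligands. NOTUM is a secreted enzyme that removes the lipid group Wnt ligands need to bind Frizzled. APCDD1 is a membrane glycoprotein that binds Wnt and LRP5. SHISA3 belongs to the Shisa family, whose members hold Frizzled and FGF receptors back in the endoplasmic reticulum, as first described in Xenopus.

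On GRCh38, GENCODE 29 places DKK1 at chr10:52314296-52318042 on the plus strand and SHISA3 at chr4:42397839-42402487 on the plus strand. It places WIF1 at chr12:65050626-65121566 on the minus strand, NOTUM at chr17:81952507-81961840 on the minus strand and APCDD1 at chr18:10454628-10489948 on the plus strand. All 6 are protein-coding. DKK1 overlaps the antisense gene PRKG1-AS1, and WIF1 overlaps the antisense gene AC135895.1 and the small RNA gene RNU6-166P. None of these overlapping genes is in the authors' table. Whether the authors' counting used strand is not given in the sources used here, so reads of such pairs cannot be told apart.

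TCF and LEF factors bind DNA with the core CTTTG followed by A or T. The 250 bases before the RefSeq start of each matched gene were searched for 4 such motifs on both strands. The first was CTTTGAA, the second was CTTTGAT, the third was CTTTGTA and the fourth was CTTTGTT. RefSeq promoters of GRCh38.p14 were matched for DKK1, WIF1, APCDD1 and SHISA3, and those of DKK4 and NOTUM are not shown. The promoters of DKK1 and SHISA3 are printed because these genes moved in opposite directions with Helicon4 at 100 mpk. Both are on the plus strand, at chr10:52314031-52314280 for DKK1 and chr4:42397238-42397487 for SHISA3, and capitals mark the motifs.
DKK1: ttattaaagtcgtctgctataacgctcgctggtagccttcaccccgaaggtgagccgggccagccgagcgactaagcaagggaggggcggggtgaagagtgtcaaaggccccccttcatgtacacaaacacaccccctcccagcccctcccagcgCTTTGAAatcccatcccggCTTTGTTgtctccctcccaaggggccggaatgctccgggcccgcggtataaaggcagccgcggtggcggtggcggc
SHISA3: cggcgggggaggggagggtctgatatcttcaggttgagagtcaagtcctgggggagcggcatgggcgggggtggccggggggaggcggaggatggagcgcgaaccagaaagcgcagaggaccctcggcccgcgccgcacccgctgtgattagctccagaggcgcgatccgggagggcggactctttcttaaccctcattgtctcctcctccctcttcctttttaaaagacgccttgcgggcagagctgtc
The DKK1 window held CTTTGAA 95 to 89 bases and CTTTGTT 76 to 70 bases before the gene's RefSeq start, both on the strand of the gene. The windows of WIF1, APCDD1 and SHISA3 held none of the 4 motifs. Among 35116 RefSeq promoter windows of the same length, 12% held at least 1 of the 4, with 3.8% holding CTTTGAA and 4.5% holding CTTTGTT. A match is a description of the letters and not a binding site.

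Whole reads recovered from the table numbered 26.8 to 61.6 M (mega) per library. Levels are in CPM as scaled by the authors. A fold change is the difference of group means of log2(CPM + 1), given with its standard error and tested with limma and adjusted over 13373 genes. This scale understates changes of genes near 1 CPM. The median fold change of all genes tested was at most 0.01 from 0 on the log2 scale in each of the 6 comparisons. Library titles carry 7 codes, whose meaning is not stated, and no code holds libraries from more than 2 groups, so most of the difference between groups cannot be told apart from the code. With the title code blocked, the groups are linked only through codes SH7080, SH7081 and SH7083. SH7080 holds 5 Helicon4neg and 2 vehicle libraries, and SH7081 holds 1 library of Helicon4 at 30 mpk and 3 of Helicon4neg. SH7083 holds 4 libraries of Helicon4 at 100 mpk and 1 at 30 mpk. Libraries of other codes do not enter the blocked differences, so calls kept or lost there rest on few libraries. Helicon4neg library 2 stood apart, with a column sum of 1.26 M against 1.13 M in the next, vehicle library 6. Leaving out both libraries changed none of the calls on the 6 genes. No mouse genome is named in the labels, so reads of mouse host cells may be counted under human genes, and in whole tumors fewer cells of a type and less RNA per cell cannot be told apart.

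Of 10 colorectal epithelial markers 7 were in the table, and their summed level was 1928 to 2933 CPM with Helicon4 at 100 mpk, 2677 to 3370 CPM at 30 mpk, 3671 to 5121 CPM with Helicon4neg and 2299.5 to 4366.5 CPM with vehicle. Most of this sum was CDX2, an intestinal transcription factor, which was lower at 100 mpk than with vehicle (-0.59 ± 0.13 on the log2 scale, limma, adjusted p = 6.45e-04) and higher with Helicon4neg than with vehicle (0.40 ± 0.11, adjusted p = 0.0257). KRT20, a keratin of differentiated cells, was higher at 100 mpk than with vehicle (0.73 ± 0.17, adjusted p = 0.00156). KRT8 (0.11), KRT18 (-0.11), EPCAM (0.24) and CDH17 (0.22) were also detected and did not pass at 100 mpk against vehicle (limma, adjusted p = 0.121 to 0.654). VIL1, CDX1 and LGALS4 were looked for and were not in the table. Of 14 fibroblast markers 8 were in the table, and their summed level was 222 to 324 CPM with Helicon4 at 100 mpk, 270 to 380 CPM at 30 mpk, 424 to 511 CPM with Helicon4neg and 324 to 490 CPM with vehicle. Of 8 endothelial markers 3 were in the table, at 25.4 to 40.5, 32.97 to 55.3, 42.1 to 149 and 41.2 to 96.0 CPM in the same groups. Of 7 leukocyte markers 4 were in the table, at 26.5 to 38.7, 25.5 to 36.3, 16.7 to 41.9 and 27.2 to 44.5 CPM. Of 9 fat, muscle and skin markers 1 was in the table, at 17.4 to 27.4, 15.2 to 18.1, 16.4 to 31.8 and 17.3 to 26.9 CPM. PECAM1, CDH5, KDR, VWF, TEK, CD68, CD14, LYZ, DCN and LUM were looked for and were not in the table. For markers it does not hold, the table gives no level. At 100 mpk against vehicle 3 of the 8 fibroblast markers were higher and 4 lower, and 0 of the 3 endothelial markers were higher and 2 lower, where 14.3% of all genes tested were higher and 15.9% lower. The fibroblast and endothelial sums at 100 mpk were below the vehicle range, for fibroblasts narrowly (highest 324.25 CPM against lowest 324.48 CPM). The largest parts of the fibroblast sum were FBLN1 (192 CPM with vehicle) and MMP2 (156 CPM). Both were lower at 100 mpk, as were PDGFRB and BGN, whereas COL1A1 (0.77 ± 0.13), SPARC (0.57 ± 0.15) and PDGFRA (1.13 ± 0.10) were higher. The sums are therefore no measure of fibroblast number. The part of host cells in the levels of the 6 antagonists was not tested. A covariate of 15 fibroblast, endothelial and leukocyte markers cannot decide it, since many of these markers themselves differed between groups. Its values are given where it ended a call.

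With Helicon4 at 100 mpk, DKK1, DKK4, WIF1, NOTUM and APCDD1 fell and SHISA3 rose relative to vehicle. All 6 passed the test, 1 higher and 5 lower, where 14.3% of all genes tested were higher and 15.9% were lower. With Helicon4 at 30 mpk the same 5 genes fell and SHISA3 did not pass, a count of 5 lower and 0 higher, where 5.22% of all genes were lower and 5.86% higher. With Helicon4neg, 1 of the 6 passed, NOTUM, which was higher than with vehicle, where 2.21% of all genes were higher and 2.62% lower. All 3 comparisons share the vehicle libraries. Since the 6 genes were chosen with earlier results of these data known, their counts beside the shares of all genes are a description and not independent support.

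**Figure D1:**
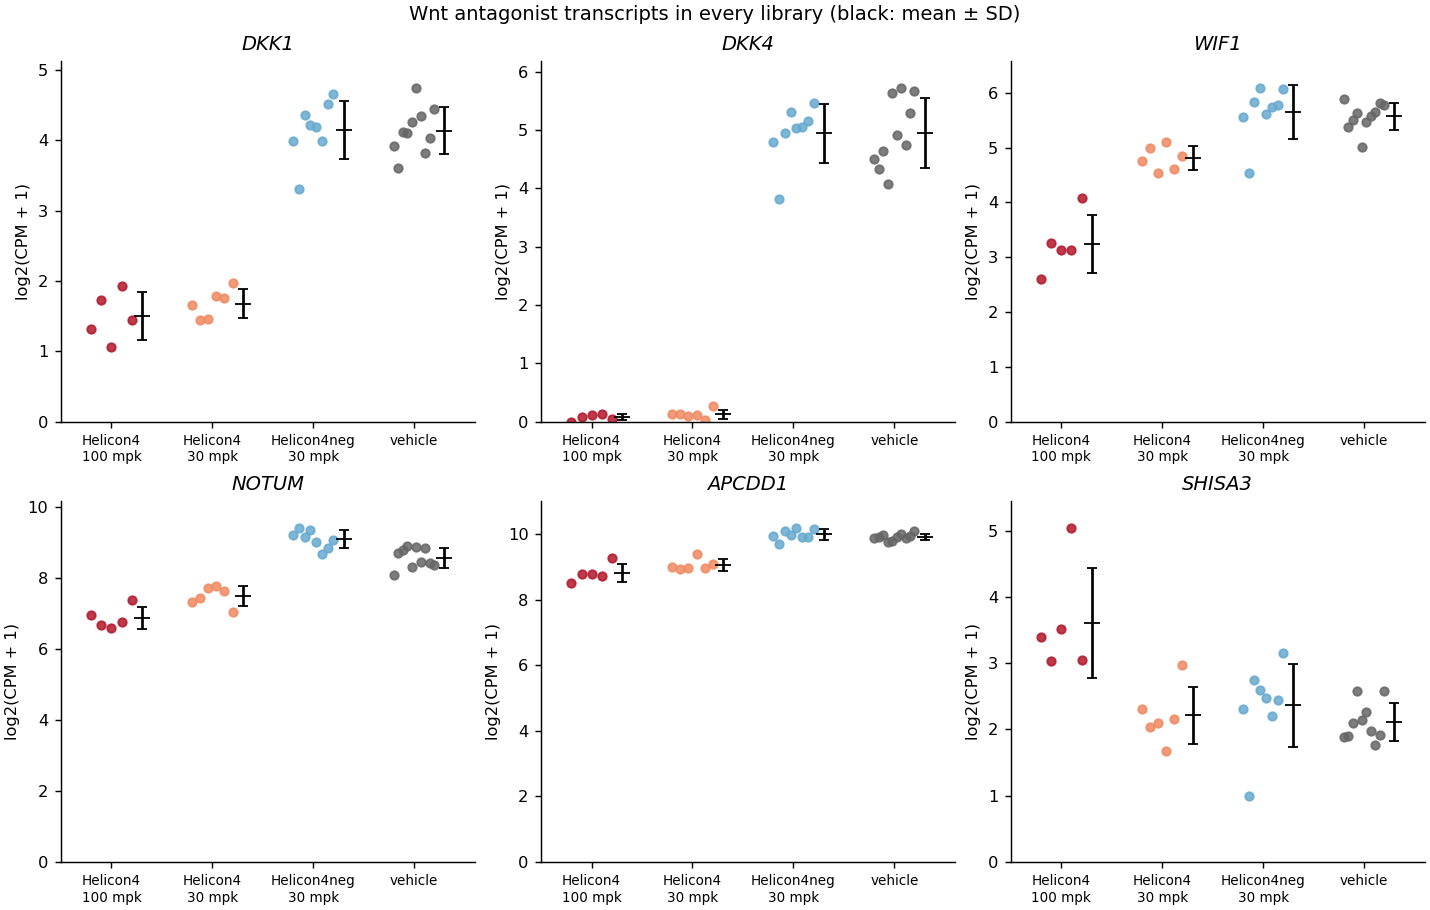
Level of each gene in every library as log2(CPM + 1), with each group's mean ± SD in black (n = 5 for Helicon4 100 mpk, 6 for Helicon4 30 mpk, 8 for Helicon4neg and 10 for vehicle). DKK1 and DKK4 lie low at both Helicon4 doses, WIF1 steps down with dose, and SHISA3 is high at 100 mpk, where library 4 reached 32.1 CPM.

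Per kilobase of gene length in vehicle tumors, APCDD1 was the most abundant of the 6, at 163 ± 11.9 CPM per kilobase, followed by NOTUM at 128 ± 24.3 (SD, n = 10). DKK4 followed at 36.3 ± 15.3 CPM per kilobase, WIF1 at 19.9 ± 3.29, DKK1 at 7.73 ± 1.91 and SHISA3 at 1.72 ± 0.471. APCDD1 and NOTUM overlapped between libraries, as did DKK4 and WIF1, while the other neighbours in this order did not. With Helicon4 at 100 mpk, DKK4 went to the bottom of this order, at 0.0596 ± 0.0426 CPM per kilobase, and SHISA3 stood at 6.76 ± 5.36 (SD, n = 5). Ranked per kilobase among the 13492 genes of the table, DKK4 stood at percentile 0.385 with Helicon4 at 100 mpk, 0.926 at 30 mpk, 90.8 with Helicon4neg and 91.2 with vehicle. Each library had reads for 13482 to 13492 of these genes, so the table holds few genes without reads. DKK4 reached 1 CPM in 0 Helicon4 libraries at either dose, in 8 Helicon4neg and in 10 vehicle libraries. Its percentiles hold only among the genes kept in the table. APCDD1 stayed at percentile 97.0 or above in all 4 groups.

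Among the LRP ligands, DKK1 had 1.503, 2.33, 1.09, 2.81 and 1.74 CPM in the 5 libraries of Helicon4 at 100 mpk. It had a lowest, median and highest level of 1.73, 2.27 and 2.91 CPM at 30 mpk, 8.88, 17.4 and 24.2 CPM with Helicon4neg, and 11.1, 16.3 and 25.9 CPM with vehicle. Every Helicon4 library lay below every Helicon4neg and vehicle library, and the ranges of the Helicon4 doses overlapped. DKK1 changed by -2.64 ± 0.18 on the log2 scale with Helicon4 at 100 mpk against vehicle (limma, adjusted p = 1.05e-12) and by -2.46 ± 0.17 at 30 mpk (adjusted p = 3.11e-12). Its level averaged 11.1% of that of vehicle at 100 mpk and 13.1% at 30 mpk.

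DKK4, on chromosome 8 (42374068-42377232, minus strand, GRCh38), was nearly absent with Helicon4. It had 0, 2, 3, 6 and 2 reads, or 0, 0.0567, 0.0801, 0.0963 and 0.0334 CPM, in the libraries at 100 mpk. The library with no read allows up to 0.0683 CPM, an upper limit from 3 counts that covers counting error only. At 30 mpk its lowest, median and highest levels were 0.0236, 0.0861 and 0.201 CPM, against 13.0, 31.9 and 43.1 CPM with Helicon4neg and 15.8, 27.5 and 51.9 CPM with vehicle. Again no Helicon4 library reached the range of Helicon4neg or vehicle. On summed reads, 27 reads at 30 mpk stood against 12344 with Helicon4neg and 14725 with vehicle. The depth-corrected level was 342-fold higher with Helicon4neg (95% counting interval 235 to 519) than at 30 mpk. With vehicle it was 355-fold higher than at 30 mpk (244 to 538). These intervals cover counting error only and leave out the spread between libraries. The fitted change on the compressed log2(CPM + 1) scale was -4.88 ± 0.23 at 100 mpk (adjusted p = 5.08e-16) and -4.83 ± 0.22 at 30 mpk against vehicle (adjusted p = 3.88e-16, limma).

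WIF1 had 5.06, 8.59, 7.80, 7.80 and 15.9 CPM in the libraries of Helicon4 at 100 mpk. Its lowest, median and highest levels were 22.3, 26.8 and 33.5 CPM at 30 mpk, 22.1, 53.3 and 67.1 CPM with Helicon4neg and 31.3, 47.5 and 58.0 CPM with vehicle. The 100 mpk libraries lay below all others, whereas the ranges at 30 mpk overlapped those of Helicon4neg and vehicle. WIF1 changed by -2.33 ± 0.20 on the log2 scale at 100 mpk against vehicle (limma, adjusted p = 1.67e-10) and by -0.76 ± 0.19 at 30 mpk (adjusted p = 0.00551). The call at 30 mpk was lost with host markers as a covariate (-0.59, adjusted p = 0.0854), with the replicate block (-0.64, adjusted p = 0.0559) and with the title code blocked (-1.39, adjusted p = 0.334).

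NOTUM, the Wnt deacylase, had 123, 101, 96.1, 108 and 164 CPM in the libraries of Helicon4 at 100 mpk. Its lowest, median and highest levels were 129.5, 185 and 217 CPM at 30 mpk, 405, 556 and 680 CPM with Helicon4neg and 273, 381 and 476 CPM with vehicle. All Helicon4 libraries lay below all Helicon4neg and vehicle libraries. NOTUM changed by -1.70 ± 0.14 on the log2 scale at 100 mpk against vehicle (limma, adjusted p = 1.84e-10) and by -1.09 ± 0.14 at 30 mpk (adjusted p = 6.95e-07). With the title code blocked these changes were -0.99 (adjusted p = 0.227) and -0.71 (adjusted p = 0.514).

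APCDD1, the Wnt-binding membrane protein, had 368, 444, 442, 422 and 614 CPM in the libraries of Helicon4 at 100 mpk. Its lowest, median and highest levels were 495, 509 and 679 CPM at 30 mpk, 839, 1002 and 1175 CPM with Helicon4neg and 863, 967 and 1108 CPM with vehicle. The Helicon4 libraries lay below every Helicon4neg and vehicle library. APCDD1 changed by -1.1 ± 0.10 on the log2 scale at 100 mpk against vehicle (limma, adjusted p = 2.82e-10) and by -0.85 ± 0.09 at 30 mpk (adjusted p = 3.60e-08). It was at 47.1% of the mean vehicle level at 100 mpk and 55.6% at 30 mpk, and both calls held with the title code blocked (adjusted p = 0.0134 and 0.0365).

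SHISA3 had 9.54, 7.20, 10.5, 32.1 and 7.30 CPM in the libraries of Helicon4 at 100 mpk. Its lowest, median and highest levels were 2.20, 3.38 and 6.89 CPM at 30 mpk, 0.982, 4.49 and 7.93 CPM with Helicon4neg and 2.39, 3.10 and 4.99 CPM with vehicle. All 5 libraries at 100 mpk were above all vehicle libraries and all 30 mpk libraries, and 1 Helicon4neg library overlapped them. SHISA3 rose by 1.5 ± 0.27 on the log2 scale at 100 mpk against vehicle (limma, adjusted p = 1.04e-04). Its mean at 100 mpk was 13.3 ± 10.6 CPM (SD, n = 5), and 8.63 ± 1.64 CPM without library 4 (SD, n = 4), against 3.39 ± 0.929 CPM with vehicle (SD, n = 10). With the title code blocked the difference was 0.46 (adjusted p = 0.880). At 30 mpk the difference from vehicle was 0.10 on the log2 scale, with 95% limits of -0.42 and 0.63 (adjusted p = 0.822).

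**Figure D2:**
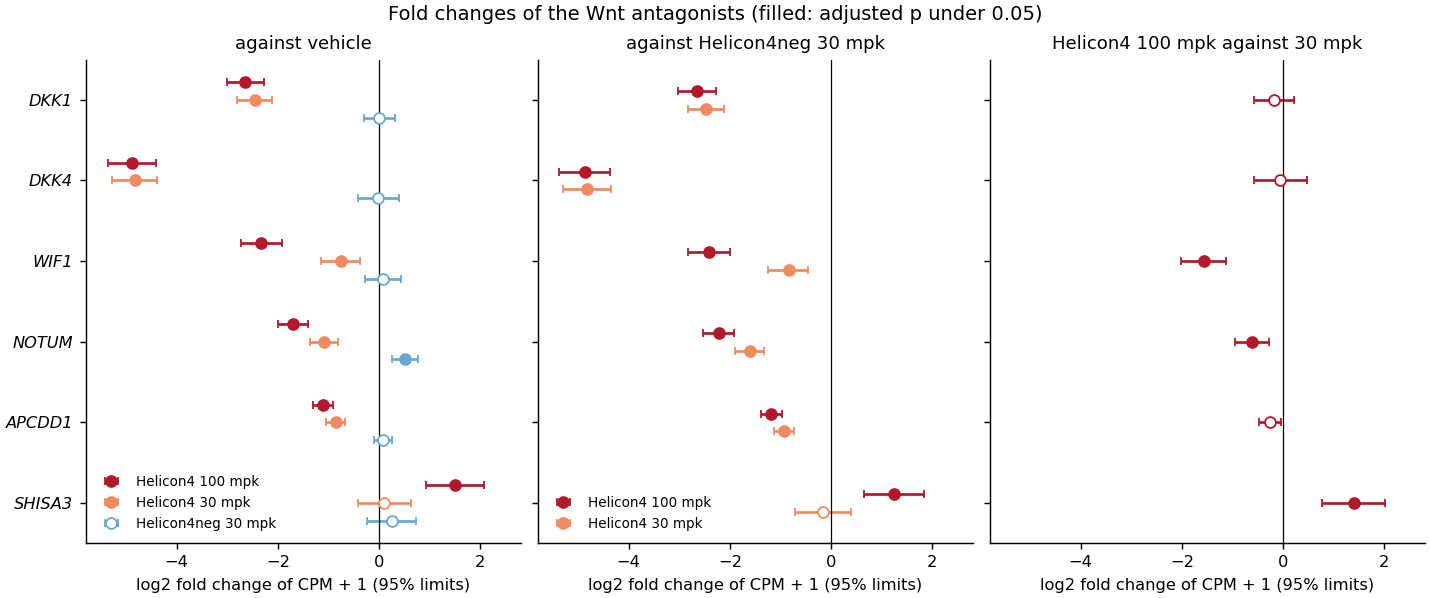
Fold change of each gene on the log2(CPM + 1) scale with 95% limits, against vehicle (left), against Helicon4neg (middle) and between the Helicon4 doses (right), with filled points where the adjusted p was under 0.05. The first 5 genes lie left of 0 for both Helicon4 doses, SHISA3 lies right of 0 at 100 mpk, and NOTUM is the filled point for Helicon4neg.

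Setting Helicon4 against Helicon4neg at the matched dose of 30 mpk compared the peptides, whose structural difference the labels do not give. DKK1, DKK4, WIF1, NOTUM and APCDD1 were lower with Helicon4, which made 5 of the 6 lower and 0 higher, where 7.31% of all genes tested were lower and 7.78% higher. DKK1 differed by -2.47 ± 0.17 on the log2 scale (limma, adjusted p = 6.48e-12), DKK4 by -4.82 ± 0.23 (adjusted p = 9.66e-16) and APCDD1 by -0.93 ± 0.09 (adjusted p = 1.46e-08). NOTUM differed by -1.61 ± 0.14 (adjusted p = 9.52e-10), on levels of 180.4 ± 33.3 CPM with Helicon4 (SD, n = 6) and 551 ± 92.0 CPM with Helicon4neg (SD, n = 8). WIF1 differed by -0.84 ± 0.19 (adjusted p = 0.00276), a call lost with host markers as a covariate (-0.60, adjusted p = 0.162) and with the title code blocked (-1.12, adjusted p = 0.208). For SHISA3 the difference was -0.15 with 95% limits of -0.71 and 0.40 (adjusted p = 0.758). The differences with the title code blocked rest on code SH7081 alone, which holds 1 Helicon4 and 3 Helicon4neg libraries. There DKK1 was at 2.15 CPM with Helicon4 and 14.9 to 24.2 CPM with Helicon4neg. NOTUM was at 158 CPM with Helicon4 and 405 to 538 CPM with Helicon4neg.

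Helicon4 at 100 mpk was also set against Helicon4neg, at unequal doses. All 6 genes passed, 5 lower and 1 higher, where 17.7% of all genes were lower and 17% higher. DKK1 differed by -2.65 on the log2 scale, DKK4 by -4.87, WIF1 by -2.41, NOTUM by -2.22 and APCDD1 by -1.18. SHISA3 was higher by 1.25 ± 0.29 (limma, adjusted p = 0.00108), and this call was lost with host markers as a covariate (1.27, adjusted p = 0.0681) and with the title code blocked (0.48, adjusted p = 0.999).

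Between Helicon4neg and vehicle, DKK1, DKK4, WIF1, APCDD1 and SHISA3 did not pass the test. DKK1 averaged 17.4 ± 4.70 CPM with Helicon4neg (SD, n = 8) and 17.0 ± 4.22 CPM with vehicle (SD, n = 10), a difference of 0.01 on the log2 scale with 95% limits of -0.30 and 0.32. DKK4 differed by -0.01, with limits of -0.42 and 0.40. The limits were -0.27 and 0.43 for WIF1, -0.09 and 0.25 for APCDD1 and -0.23 and 0.74 for SHISA3. These limits bound the difference and do not show that the levels were the same.

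NOTUM rose by 0.52 ± 0.13 on the log2 scale with Helicon4neg against vehicle (limma, adjusted p = 0.0145), with levels of 551 ± 92.0 CPM with Helicon4neg (SD, n = 8) and 387 ± 73.3 CPM with vehicle (SD, n = 10). The ranges of the groups overlapped. The call held when each library was left out in turn (adjusted p = 0.00660 to 0.0427) and was lost with the replicate block (0.47, adjusted p = 0.0592) and with the title code blocked (0.84, adjusted p = 0.0506). The value with the title code blocked rests on code SH7080 alone, which holds 5 Helicon4neg and 2 vehicle libraries. There NOTUM was at 514 to 680 CPM with Helicon4neg and 329 to 340 CPM with vehicle, without overlap. The other 5 genes differed by -0.70 to -0.02 within that code. CDX2 was also higher with Helicon4neg than with vehicle, by 0.40 ± 0.11 on the log2 scale (limma, adjusted p = 0.0257), and its part in the NOTUM result was not tested. Whether NOTUM differed from the other genes in its response to Helicon4neg was not tested.

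**Figure D3:**
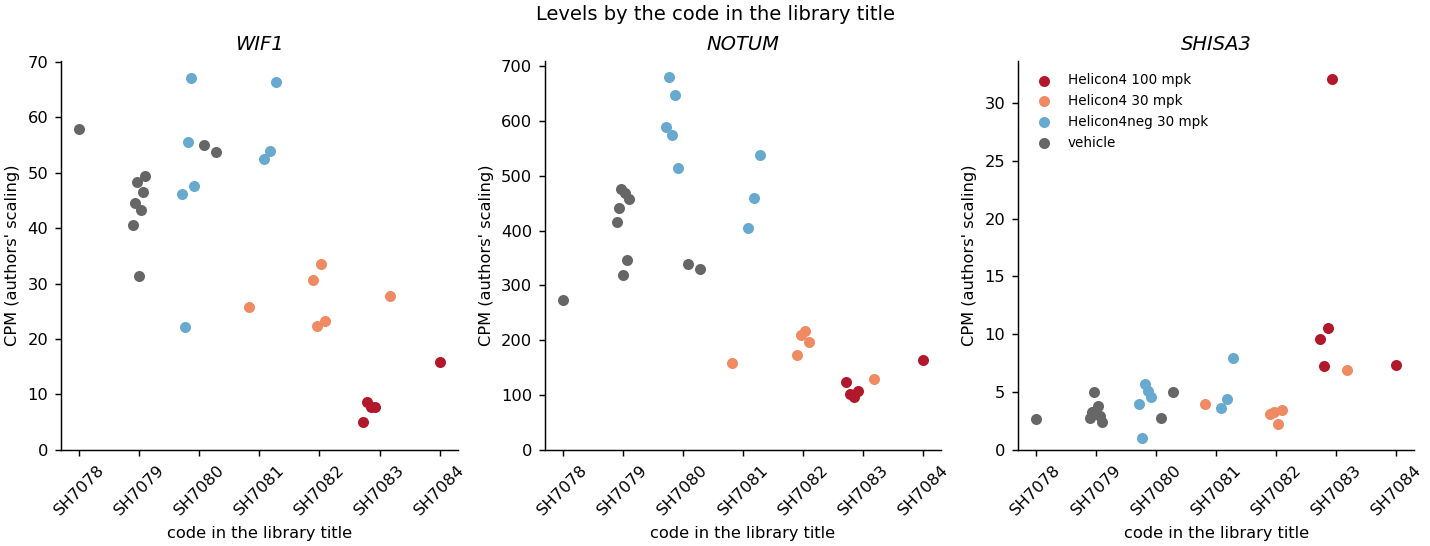
CPM of WIF1, NOTUM and SHISA3 in each library, set out by the code in the library title, with colors for the groups. In SH7080 the Helicon4neg libraries lie above the vehicle libraries for NOTUM, and in SH7083 the single library at 30 mpk lies near those at 100 mpk for NOTUM and SHISA3 but above them for WIF1.

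Between the Helicon4 doses, 3 of the 6 genes passed, WIF1 and NOTUM lower and SHISA3 higher at 100 mpk, where 1.86% of all genes tested were lower and 1.74% higher. WIF1 was at 9.03 ± 4.08 CPM at 100 mpk (SD, n = 5) and 27.2 ± 4.30 CPM at 30 mpk (SD, n = 6), a difference of -1.56 ± 0.22 on the log2 scale (limma, adjusted p = 5.41e-05). It passed in each alternative run. NOTUM was lower, at -0.61 ± 0.16 (limma, adjusted p = 0.0283). This call was lost without any 1 of 7 libraries, 3 at 100 mpk and 4 at 30 mpk (adjusted p up to 0.110). It was also lost with host markers as a covariate and with the title code blocked (-0.51 and -0.28). SHISA3 was higher by 1.40 ± 0.30 (limma, adjusted p = 0.00681), and this call was lost with the title code blocked (0.77).

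For DKK1 the dose difference was -0.18 on the log2 scale, with 95% limits of -0.58 and 0.22 (limma, adjusted p = 0.705). For DKK4, whose reads numbered 13 at 100 mpk and 27 at 30 mpk, the ratio of 100 to 30 mpk was 0.567 with a counting interval of 0.268 to 1.14, so that a difference was not detectable at this depth. APCDD1 differed by -0.25, with limits of -0.47 and -0.03 (adjusted p = 0.208), and it passed without library 5 at 100 mpk (-0.36, adjusted p = 0.0306). Whether the dose differences of WIF1 and DKK1 differ from each other was not tested. The dose differences with the title code blocked rest on code SH7083 alone, which holds 4 libraries at 100 mpk and 1 at 30 mpk. There WIF1 was at 5.06 to 8.59 CPM at 100 mpk and 27.8 CPM at 30 mpk. In the same code NOTUM was at 96.1 to 123 CPM at 100 mpk and 129.5 CPM at 30 mpk, and SHISA3 was at 7.20 to 32.1 CPM at 100 mpk and 6.89 CPM at 30 mpk.

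Other genes of the pathway were taken from 4 lists, also chosen with earlier results of these data known. Of 20 other extracellular and surface antagonists, 11 were tested. At 100 mpk against vehicle 3 were higher and 6 lower, with a median fold change of -0.47 on the log2 scale, where 14.3% of all genes were higher and 15.9% lower. At 30 mpk 1 was higher and 3 lower, with a median of -0.13, where 5.86% of all genes were higher and 5.22% lower. SFRP5, a secreted Frizzled-related protein that binds Wnt, was at 0.450 ± 0.312 CPM at 100 mpk and 3.25 ± 0.939 CPM with vehicle (-1.55 ± 0.16, adjusted p = 6.57e-09). KREMEN2, a receptor that acts with Dickkopf proteins on LRP6, was at 1.31 ± 0.455 CPM at 100 mpk and 5.19 ± 1.23 CPM with vehicle (-1.42 ± 0.16, adjusted p = 7.56e-08). Its relative KREMEN1 was lower, at -0.47 ± 0.14 (adjusted p = 0.0131). The Dickkopf family did not move as 1 group, since DKK2 was higher by 0.44 ± 0.10 (adjusted p = 0.00157) and DKK3, a divergent member, by 0.49 ± 0.08 (adjusted p = 4.05e-05). DKK2 was also higher at 30 mpk (0.45 ± 0.10, adjusted p = 0.00134), on means of 1.22 CPM at 30 mpk and 0.636 CPM with vehicle.

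Of 25 Wnt ligands, secretion genes and R-spondins, 13 were tested, and 2 were higher and 4 lower at 100 mpk against vehicle, with a median of -0.09. With 14.3% of all genes higher and 15.9% lower, the count of higher genes is near the background, and the genes below are described singly. WNT5A, a ligand known mainly for signalling without β-catenin, was at 63.7 ± 14.5 CPM at 100 mpk and 27.9 ± 4.50 CPM with vehicle (1.15 ± 0.16, adjusted p = 1.74e-06). WNT2B was higher by 0.53 ± 0.10 (adjusted p = 1.74e-04), WNT5B lower, at -0.63 ± 0.13 (adjusted p = 6.12e-04), and WNT6 lower, at -0.77 ± 0.11 (adjusted p = 2.12e-06), on means of 0.162 CPM at 100 mpk and 0.993 CPM with vehicle. All 4 also passed at 30 mpk, in the same directions. PORCN, the enzyme that adds the lipid NOTUM removes, was at 17.3 ± 2.79 CPM at 100 mpk and 18.6 ± 2.61 CPM with vehicle (-0.11 ± 0.11, adjusted p = 0.479).

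Of 24 receptors and glypicans, 22 were tested, and 4 were higher and 5 lower at 100 mpk against vehicle, with a median of 0.07. These counts are near the 14.3% of all genes that were higher and the 15.9% that were lower, so the receptors below are single genes and not a result about the list. LRP5, to which DKK1, DKK4 and APCDD1 bind, was lower, at -0.53 ± 0.16 at 100 mpk (adjusted p = 0.0104) and differed by -0.05 ± 0.15 at 30 mpk (adjusted p = 0.865). LRP6 differed by 0.34 ± 0.16 (adjusted p = 0.107). The Frizzled receptor FZD10 was at 13.9 ± 4.91 CPM at 100 mpk and 67.1 ± 16.7 CPM with vehicle (-2.20 ± 0.18, adjusted p = 7.31e-11), and FZD8 was lower, at -0.99 ± 0.12 (adjusted p = 1.55e-07). The glypicans, heparan sulfate proteins at the cell surface, went apart, with GPC5 higher by 1.67 ± 0.12 (adjusted p = 8.93e-12) and GPC1 lower, at -0.53 ± 0.10 (adjusted p = 1.05e-04).

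Of 19 intracellular feedback genes and Wnt targets, 18 were tested, and 2 were higher and 12 lower at 100 mpk against vehicle, with a median of -0.50, where 14.3% of all genes were higher and 15.9% lower. At 30 mpk 2 were higher and 5 lower, with a median of -0.20, where 5.86% of all genes were higher and 5.22% lower. NKD1, an inhibitor of Dishevelled, was at 75.6 ± 18.4 CPM at 100 mpk and 289 ± 39.1 CPM with vehicle (-1.94 ± 0.12, adjusted p = 3.03e-13). NKD2 was lower, at -1.89 ± 0.16 (adjusted p = 9.67e-11), the transcription factor SP5 at -2.36 ± 0.16 (adjusted p = 2.36e-12) and AXIN2, a scaffold of the complex that degrades β-catenin, at -0.85 ± 0.09 (adjusted p = 3.07e-08). EPHB3, an ephrin receptor, was higher by 1.67 ± 0.13 (adjusted p = 3.87e-11). With Helicon4neg against vehicle, 0 of the 11 other antagonists, 1 of the 13 ligand genes, 1 of the 22 receptor genes and 0 of these 18 genes passed, where 2.21% of all genes were higher and 2.62% lower, and nothing is read from these counts. The ligand gene was RSPO1 (0.38 ± 0.11, adjusted p = 0.0360) and the receptor gene GPC1 (-0.45 ± 0.08, adjusted p = 0.00166), named after their values were seen. Some of the genes named from the lists met the filter of 1 CPM in 5 libraries mainly through the groups where they are high. SFRP5 and WNT6 reached 1 CPM in 0 libraries at 100 mpk and in 1 and 0 libraries at 30 mpk, GPC5 in 0 Helicon4neg and 0 vehicle libraries, and DKK2 in 0 Helicon4neg libraries and 1 vehicle library.

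With the title code blocked, 0 of the 11 other antagonists, 0 of the 13 ligand genes, 1 of the 22 receptor genes and 3 of the 18 feedback and target genes passed at 100 mpk against vehicle, where 1.05% of all genes passed in the same fit. These were FZD10 (-2.27, adjusted p = 0.0277), NKD1 (-1.99, adjusted p = 0.00908), EPHB3 (2.37, adjusted p = 0.00439) and TNFRSF19 (-2.66, adjusted p = 0.00771). SFRP5 (-1.35, adjusted p = 0.217) and KREMEN2 (-0.28, adjusted p = 0.848) did not.

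**Figure D4:**
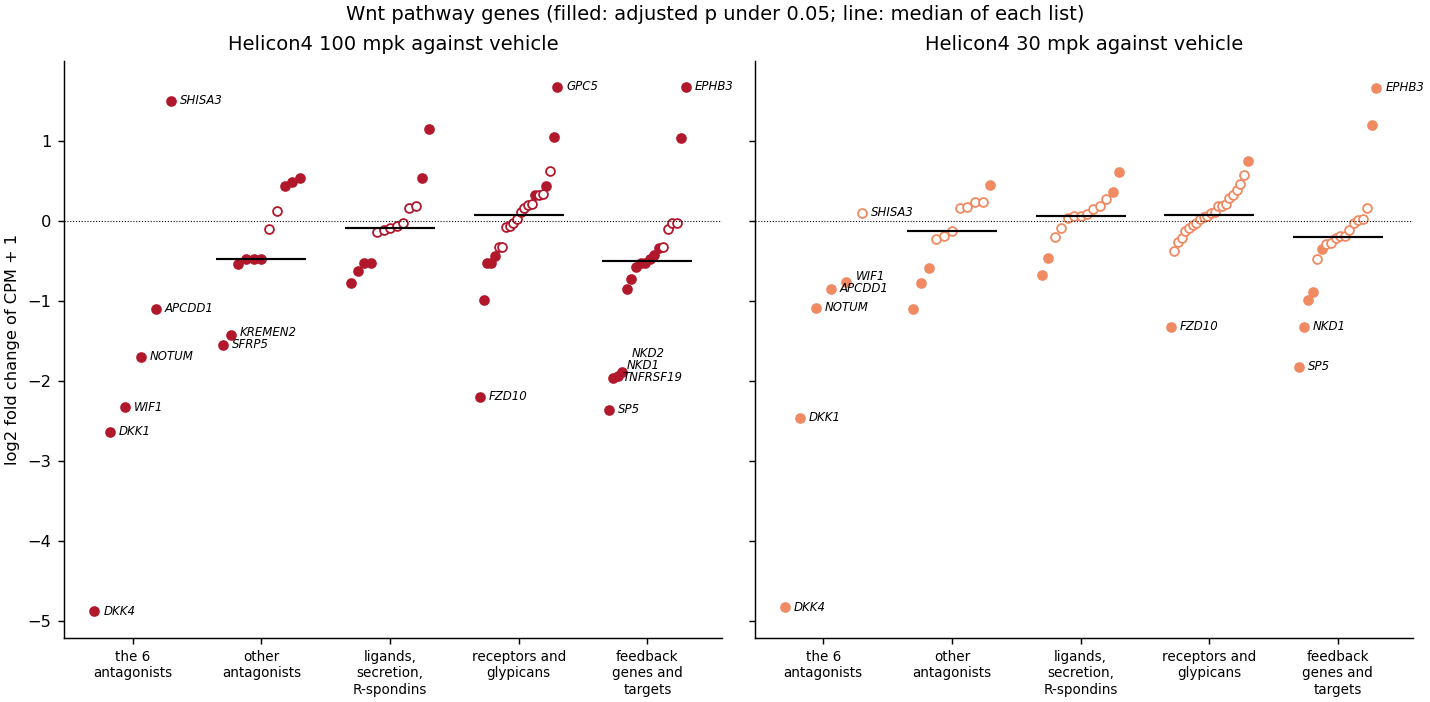
Fold change on the log2(CPM + 1) scale for the 6 antagonists and the genes tested of each Wnt list, at 100 mpk (left) and 30 mpk (right) against vehicle, with filled points where the adjusted p was under 0.05 and a line at each list's median. At 100 mpk DKK4 lies lowest at -4.88, and SP5, FZD10 and NKD1 are the low points of their lists or near them.

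The genes whose levels were most like those of each antagonist were found by Pearson correlation of log2(CPM + 1) over the 29 libraries, as a description. These r are dominated by the differences between groups, so r of the deviations from the group means is given beside them. DKK4 was nearest to DKK1 itself (r = 0.980, deviations 0.62), with PRSS23 and FGF20 next. GLT1D1 (r = 0.985, deviations 0.60) and FGF20 (0.983, deviations 0.70) were nearest to DKK4. TNFRSF19 was nearest to WIF1 (r = 0.956, deviations 0.78), followed by HDC and MTCL1. ADRA2C was nearest to NOTUM (r = 0.976, deviations 0.77), followed by DPEP1 and SLC1A5. ZNF831 was nearest to APCDD1 (r = 0.973, deviations 0.68), followed by PARM1 and NKD1 (r = 0.969, deviations 0.68). SHISA3 had the lowest likeness to its nearest gene, CYP26B1, with r = 0.837 and deviations 0.71, followed by DSC2 and EPAS1.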

How the data were processed

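PolyA RNA of 29 libraries was sequenced, and the labels name both a NEBNext Ultra II Directional kit (for extraction) and a TruSeq stranded mRNA kit, so the library kit is unclear. Per the submitters' processing notes, the reads passed through Trimmomatic 0.39, STAR 2.7.7a (build GRCh38), featureCounts (Subread 2.4.2) and edgeR 4.0.2; settings and annotation are not given in the sources used here. Each deposited value is a signal: the authors divided a gene's reads by a scaled library size, which makes it a CPM scaled between libraries. Dividing each value by the worth of 1 read returned whole numbers (tolerance 0.05) for 100% of genes in all 29 libraries, and depths of 26.8 to 61.6 M reads; an independent check of this pattern passed in a part of the columns only.

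The 13373 genes that reached 1 CPM in 5 or more libraries, all 6 antagonists included, were converted to log2(CPM + 1) and fitted by limma 3.58.1 (R 4.3.3, trend and robust options), with 4 groups in 1 fit, two-sided, adjusted by Benjamini-Hochberg over all genes, with a threshold of 0.05. The fit was also run on simulated counts with independent libraries and no effect of title code, so that run does not bear on the title codes. DKK4 passed this filter through Helicon4neg and vehicle libraries. The lists gave counts over their tested genes and, by name, up to 4 genes with the smallest adjusted p at 100 mpk against vehicle, plus LRP5, LRP6, KREMEN1, PORCN, AXIN2 and NKD1. The 3 genes with the highest r are named for each antagonist. The genes and lists were chosen with earlier results of these data known.

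Alternatives were TMM factors, a filter at 5 CPM or none, 0.1 as the pseudocount, limma without trend and robust fitting, only the groups compared, replicate number or title code blocked, a host marker covariate of 15 genes, DESeq2 1.42.0 and edgeR 4.0.16 (quasi-likelihood) run on recovered reads, libraries left out, and 2 libraries that stood apart left out together.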

Additional observations from a re-analysis of the deposited data

Results flagged for a closer look

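Of 24 groups of values (6 genes in 4 groups) tested for a library far from its nearest neighbour, 5 were picked out, where chance picks about 1 in 20. Helicon4neg library 2 gave 3 of them. It was the lowest of its group for DKK4 (13.046 CPM, next 26.7), WIF1 (22.117 CPM, next 46.1) and SHISA3 (0.982 CPM, next 3.62). The same library was also the lowest of its group for DKK1 at 8.88 CPM and for APCDD1 at 839 CPM, and the highest for NOTUM at 680 CPM. Its column sum of 1.26 M was the highest of all 29 libraries.

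SHISA3 in library 4 of Helicon4 at 100 mpk was the highest of its group (32.063 CPM, next 10.5). Without that library SHISA3 remained above vehicle in the test, as it did without each other library (1.15 to 1.65 on the log2 scale). APCDD1 in library 4 of Helicon4 at 30 mpk was the highest of its group (678.885 CPM, next 549.6).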

How the results depend on the processing

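Of 36 results (6 genes in 6 comparisons), 26 were called, and 17 of these kept their call and direction in all 12 alternatives and with each of the 29 libraries left out. Of 1476 recomputed values 22 lost a call, 1 gained one and 0 reversed. The cause of each loss was not tested. Calls kept or lost with the title code blocked rest on the few libraries in codes that hold 2 groups.

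With the title code blocked, 9 calls were lost, and at 100 mpk against vehicle 4 of the 6 genes and 141 of all genes (1.05%) were called, where 1913 were higher and 2130 lower without the block. NOTUM was at -0.99 at 100 mpk and -0.71 at 30 mpk against vehicle, 0.84 for Helicon4neg against vehicle and -0.28 between doses. SHISA3 was at 0.46 against vehicle, 0.48 against Helicon4neg and 0.77 between doses. WIF1 at 30 mpk was at -1.39 against vehicle and -1.12 against Helicon4neg. The count called became 3 at 30 mpk (0.553% of all genes) and 0 with Helicon4neg (0.015%) against vehicle, and 1 between doses (0.0748%). With the host marker covariate, WIF1 at 30 mpk was at -0.59 against vehicle and -0.60 against Helicon4neg, SHISA3 at 1.27 against Helicon4neg and NOTUM at -0.51 between doses.

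The labels do not say whether replicate numbers pair libraries. Over 35 same-numbered pairs, r of deviations ran from -0.70 to 0.52, and 15 were above 0.1. For 0 of 27 libraries did the most alike library of another group carry the same number. In the replicate block fit, WIF1 at 30 mpk against vehicle was at -0.64 and NOTUM with Helicon4neg against vehicle at 0.47. These calls were lost, so that 0 of the antagonists were called with Helicon4neg against vehicle, and no other antagonist call changed. The share of all genes called in that fit is not given here.

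Between doses, leaving out 1 library gave -0.73 to -0.54 for NOTUM, -0.36 to -0.18 for APCDD1 and 2 to 4 of the antagonists called. The share of all genes called in those runs is not given here. Depth limits DKK4, with 13 and 27 reads at 100 and 30 mpk.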

Other observations

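Within groups, the deviations of the antagonists from their group means over the 29 libraries were correlated unevenly, as a description with no test. WIF1 and APCDD1 had r = 0.73, DKK1 and SHISA3 r = 0.67, and DKK1 and DKK4 r = 0.62. DKK4 and NOTUM had r = -0.42, and among the 10 vehicle libraries alone r = -0.50. DKK1 and SHISA3 moved in opposite directions between Helicon4 at 100 mpk and vehicle, and among vehicle libraries alone had r = 0.58. The 29 libraries share title codes. Helicon4neg library 2, lowest of its group for 5 of the 6 genes and highest for NOTUM, enters r over the 29 libraries but not r among vehicle libraries alone.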
